A study of Mus musculus with 40 samples.

Results

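The genes described here act in the fission, fusion and autophagic removal of mitochondria. The 10 members are Mfn1, Mfn2, Opa1, Dnm1l, Fis1, Mff, Pink1, Bnip3, Bnip3l and Fundc1. They were chosen by symbol, and each matched exactly 1 of the 55401 gene rows. RNA of the renal cortex was sequenced from 40 male mice, with 5 mice in each of 8 groups. Akita mice were heterozygous for Ins2-Akita on C57BL/6J, a mutation of the insulin gene that causes diabetes, and WT mice were their littermates. In the ethanol arm, mice of each genotype received 10% ethanol in water, or MitoGamide at 10 mg/kg in that vehicle, by daily gavage. In the water arm, mice of each genotype are labelled with the water vehicle or with MitoQ, a mitochondria-targeted antioxidant whose dose was not given in the sources used here. Treatment ran from 6 to 22 weeks of age, when the kidneys were taken. MitoGamide is a mitochondria-targeted scavenger of methylglyoxal and related dicarbonyls, and the study asked whether it acts on the diabetic kidney. The arms are a grouping made here by vehicle. The vehicle of MitoQ was not given in the sources used here, and its place in the water arm is assumed. Ethanol and water mice may differ in more than the vehicle, and such differences cannot be told apart from it.

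Mitochondria form a network that is continually joined and divided. MFN1 and MFN2 are GTPases that fuse outer membranes, and OPA1 fuses inner membranes and shapes cristae. Dnm1l encodes DRP1, the dynamin-related GTPase that constricts mitochondria, and MFF and FIS1 are outer membrane proteins that recruit it. Damaged mitochondria are removed by mitophagy. PINK1 is a kinase that builds up on depolarized mitochondria and starts their ubiquitin marking, whereas BNIP3, BNIP3L (NIX) and FUNDC1 are outer membrane receptors that bind the autophagosome directly. Bnip3 is a known target of hypoxia-inducible factor 1. The renal cortex is rich in proximal tubules, whose transport depends on a dense supply of mitochondria.

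Library totals ran from 9106654 to 24321424 estimated counts (median 15638394). Over these libraries the members' counts had medians from 198.5 for Fundc1 to 2479 for Pink1, and the lowest count of any member was 22, for Fundc1. Levels are given as CPM, the count scaled to the depth of the library with TMM factors. In 10 libraries, all in the water arm, the 10 most counted genes held over 40% of all counts, between 40.1% and 72.5%, against at most 38.0% in the other 30. These were WT water 2, 3 and 4, Akita water 2, 3 and 5, WT MitoQ 1 and 3, and Akita MitoQ 2 and 4. In these 10 libraries the median level of a member was between 51.1% (Fundc1) and 91.5% (Dnm1l) of its median in the other 10 libraries of the water arm. Mitochondrially encoded genes held a median of 34.5% of counts in the 10 libraries, 25.4% in the rest of the water arm and 25.9% in the ethanol arm. Apart from fits with the share of counts in the 10 most counted genes as a covariate, the part of these library differences in the results was not tested. The counts of members called in comparisons that use the water arm are also given without these libraries. In bulk tissue, fewer cells of a type and less RNA per cell cannot be told apart.

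All 10 members were detected in every library. Per kilobase of merged exons, the highest level in WT mice on ethanol was that of Pink1, at 67.6 ± 4.38 CPM per kilobase (SD, n = 5). Bnip3 followed at 30.1 ± 1.46, Fis1 at 27.5 ± 1.23, Mfn2 at 23.1 ± 0.504, Bnip3l at 17.6 ± 0.801 and Opa1 at 15.6 ± 0.478. Lower values were those of Mfn1 (12.7 ± 0.290), Dnm1l (10.3 ± 0.657), Fundc1 (5.92 ± 0.587) and Mff (5.68 ± 0.211). Merged exons take in all annotated transcripts, so that this order need not hold for the transcripts expressed. Without division by length, Mff had 55.5 CPM and Fundc1 13.9 CPM in these mice. For all 10 members the group with the highest mean CPM was in the ethanol arm and the group with the lowest was in the water arm. When the 8 groups were ordered by mean, 10 of 70 neighbouring pairs differed by more than the larger of their SDs. The coefficient of variation within a group had a median of 5.56% in the ethanol arm and 24.8% in the water arm.

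**Figure D1:**
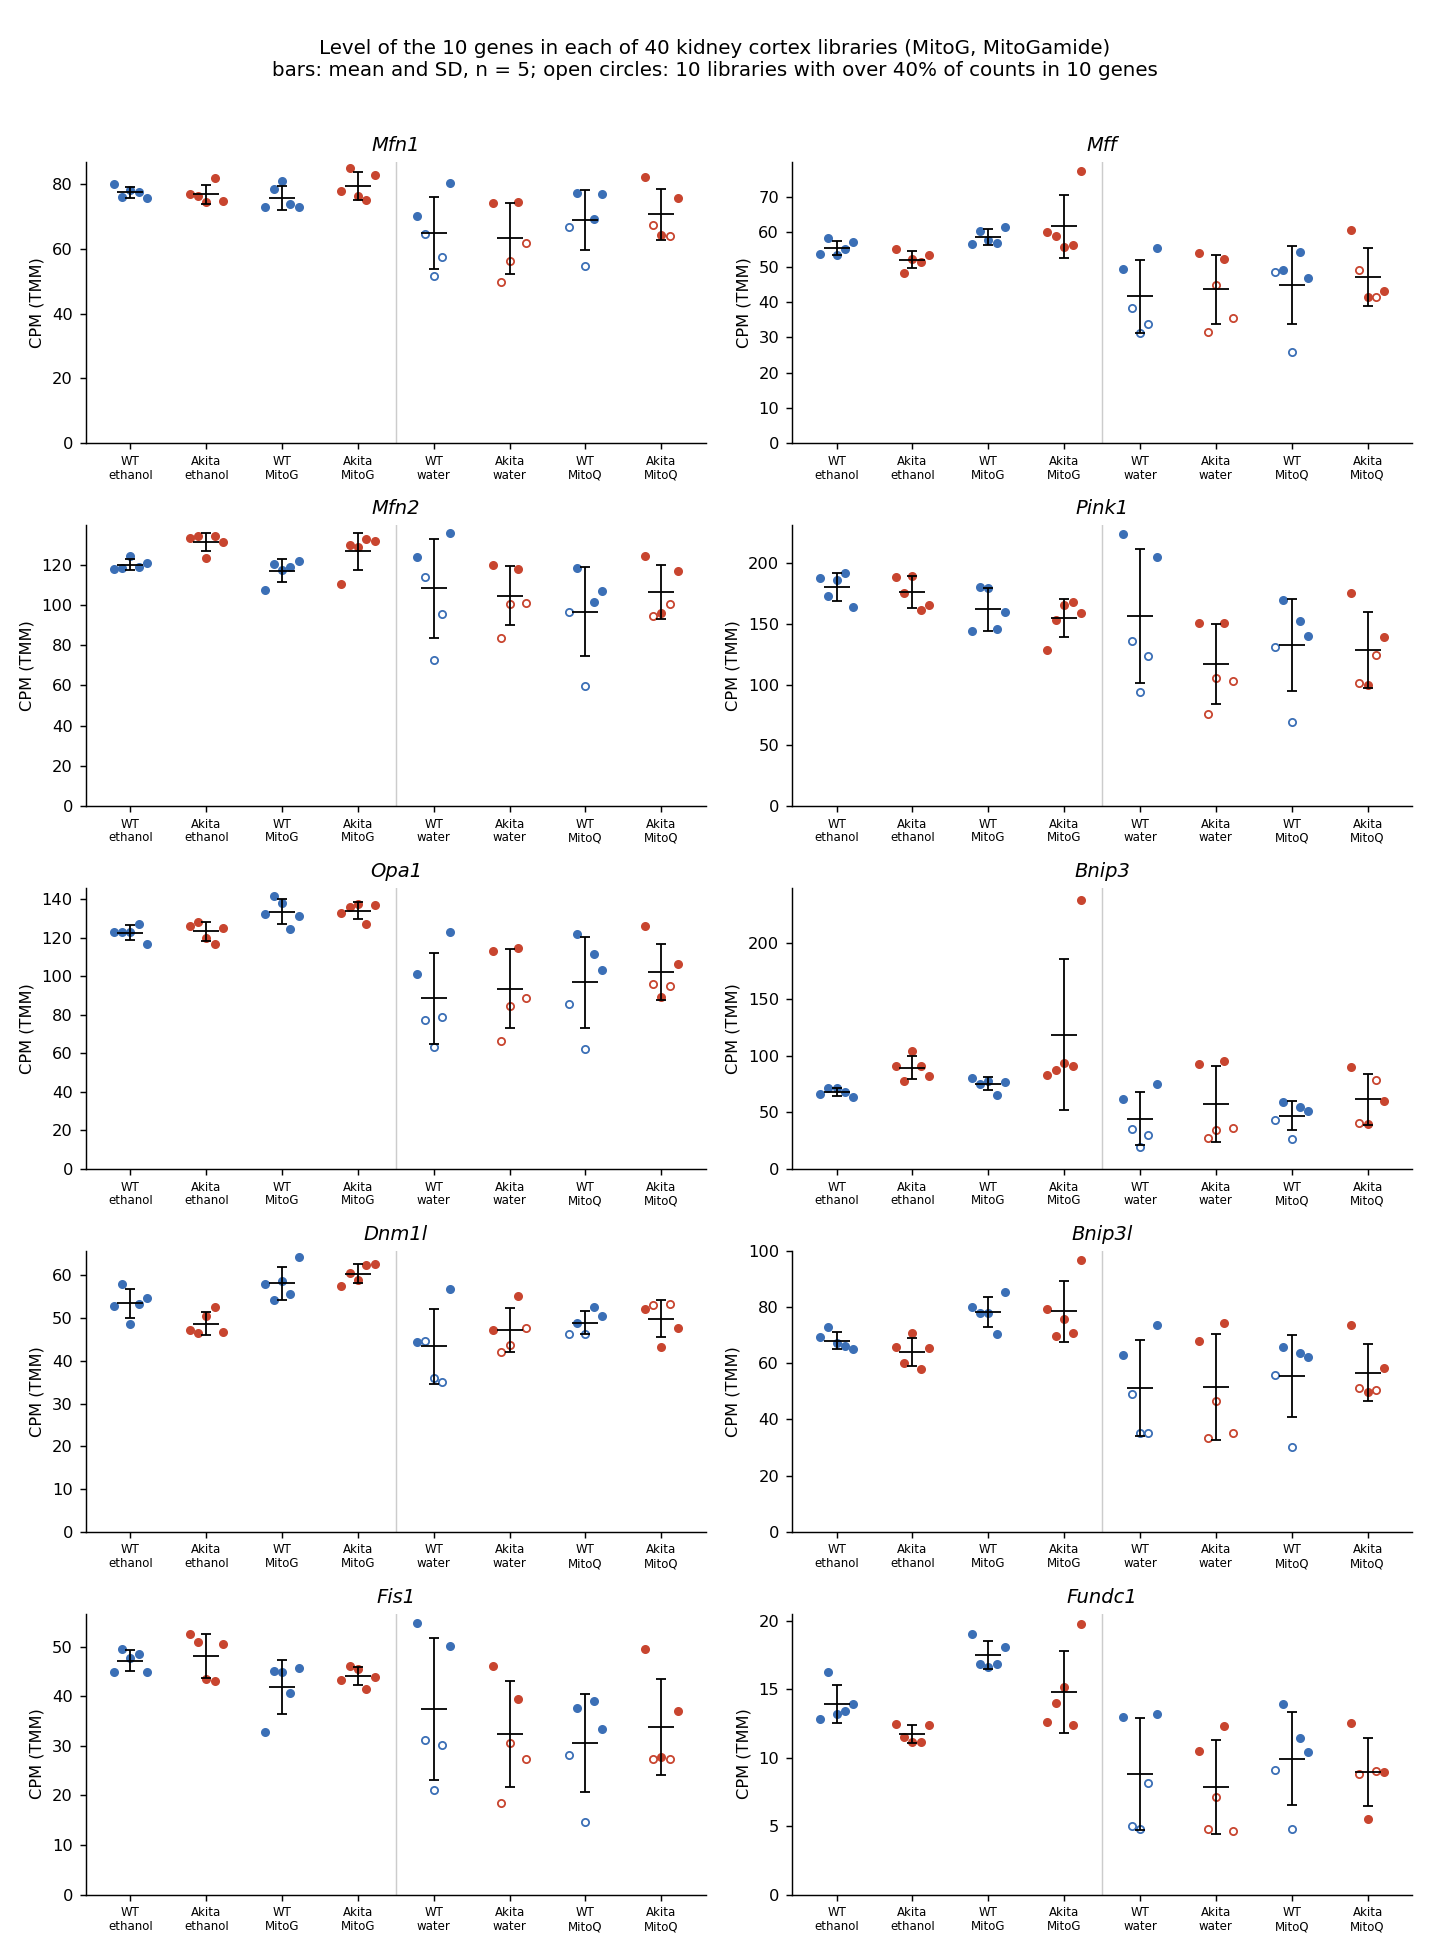
Each panel plots the level of 1 gene (CPM after TMM scaling, vertical axis from 0) in the 40 libraries by group, WT in blue and Akita in red, with bars for mean and SD (n = 5) and open circles for the 10 libraries with over 40% of counts in 10 genes. The ethanol arm, left of the grey line, varies less within groups than the water arm (median coefficient of variation 5.56% against 24.8%). Its largest gap is that of 1 Akita mouse on MitoGamide with 238 CPM of Bnip3. The open circles are mostly the lowest points of the water arm.

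The first comparison asked how the members differed between Akita and WT mice. Bnip3 was the member with the clearest difference and rose in Akita mice. On the ethanol vehicle, WT mice had Bnip3 levels of 66.5, 71.5, 71.4, 67.6 and 63.8 CPM. Akita mice on the same vehicle had 90.5, 77.7, 104, 91.2 and 82.3 CPM. The groups did not overlap, and the lowest Akita mouse lay above the highest WT mouse. This was a log2 fold change of 0.40 (SE 0.0752, 95% interval 0.24 to 0.57), a 1.32-fold increase, with an adjusted p of 0.0027 from edgeR's quasi-likelihood test. Bnip3 was the only member of 10 called, meaning an adjusted p under 0.05 over all genes tested, in a comparison that called 16.4% of 17747 genes. DESeq2 called 2 members, Bnip3 and Mfn2, among 17.6% of these genes. The Bnip3 call held when any 1 of the 10 libraries was left out, with log2 fold changes between 0.35 and 0.45. It was lost with all 40 libraries in 1 fit (0.39, SE 0.320, adjusted p = 0.656). With the share of counts in the 10 most counted genes as a covariate its adjusted p was 0.0997 (log2 fold change 0.31).

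Bnip3 had positive values in Akita mice in the other treatments too. On MitoGamide, WT mice had 80.3, 75.2, 77.9, 65.7 and 77.1 CPM of Bnip3, and Akita mice had 82.6, 87.5, 93.7, 91.1 and 238 CPM. The groups again did not overlap, and the value of 238 CPM, in Akita mouse 5, lay far above the other 4. Their log2 fold change was 0.68 (SE 0.254) with an adjusted p of 0.0922 in edgeR, and DESeq2 gave 0.0495. Without mouse 5 the log2 fold change fell to 0.28 (SE 0.0723) and the adjusted p to 0.0233. No member was called here by edgeR, among 14.3% of 16674 genes called (2386 genes), and DESeq2 called Bnip3 among 18.5%. Leaving out 1 library at a time moved the genes called between 1248 and 2822, the fewest without WT MitoGamide mouse 2 and the most without Akita mouse 5.

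In the water arm the levels of Bnip3 were lower and scattered. WT mice on water had 62.1, 35.3, 19.5, 30.2 and 75.1 CPM of Bnip3, and Akita mice had 92.9, 27.3, 34.6, 95.3 and 36.4 CPM. WT mice on MitoQ had 43.4, 59.2, 26.6, 55.1 and 51.5 CPM, and Akita mice on MitoQ had 90.5, 40.8, 39.4, 78.2 and 59.6 CPM. The genotypes overlapped in both treatments. The log2 fold change of Bnip3 was 0.37 (SE 0.444, adjusted p = 1.00) on water and 0.38 (SE 0.263, adjusted p = 0.808) on MitoQ in edgeR. With 1 library left out it ran from 0.10 to 0.68 on water and from 0.20 to 0.50 on MitoQ. Of the 10 members, 0 were called in either comparison by edgeR or by DESeq2 and 0 had an unadjusted p under 0.05, with 0.552% of 18304 genes called on water and 0.557% of 18143 on MitoQ. Without the libraries over 40%, the log2 fold change of Bnip3 on water was 0.44 (SE 0.144, adjusted p = 0.194), from 2 mice of each genotype, and on MitoQ 0.19 (SE 0.251, adjusted p = 0.898), from 3 of each, with 0 members called by edgeR in either. Those fits called 1.75% of 17921 genes on water and 0.861% of 18231 on MitoQ. On water 2 members and 2925 genes had an unadjusted p under 0.05, and on MitoQ 0 members and 1797 genes.

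Over all 4 treatments in 1 fit of 40 libraries, with treatment as a factor, Bnip3 rose in Akita mice by a log2 fold change of 0.45 (SE 0.156, 95% interval 0.13 to 0.76, adjusted p = 0.0316 in edgeR). It was again the only member called by edgeR and by DESeq2, in a comparison that called 22.8% of 17769 genes in edgeR and 24.5% in DESeq2. The call was lost with no filter on low counts (0.45, adjusted p = 0.0707), without Akita MitoGamide mouse 5 (0.36, adjusted p = 0.0703) and without Akita water mouse 4 (0.39, adjusted p = 0.0622). Fits added after the data were examined separated the arms. In the ethanol arm alone (20 libraries), 3 members were called among 31.2% of 17256 genes, with log2 fold changes of 0.55 for Bnip3 (adjusted p = 0.00566), 0.15 for Mfn2 (adjusted p = 0.00545) and -0.22 for Fundc1 (adjusted p = 0.0222). The same 3 members were called in this arm without Akita MitoGamide mouse 5, among 32.3% of 17321 genes, where the log2 fold change of Bnip3 was 0.35 (SE 0.0535, 95% interval 0.24 to 0.46, adjusted p = 3.54e-05). In the water arm alone, 0 members were called by edgeR and 0 had an unadjusted p under 0.05, among 4.31% of 18225 genes. Without the libraries over 40%, 2 members were called, Bnip3 (0.46, adjusted p = 0.0032) and Fundc1 (-0.25, adjusted p = 0.0138), among 30.3% of 17563 genes.

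Because Bnip3 was the member called over all 40 libraries, the sequence upstream of it is shown. Bnip3 (ENSMUSG00000078566.8) lies on the minus strand at chr7:138890836-138909519 of GRCm38. The stretch below covers chr7:138909520-138909756 on the minus strand, the 237 bases directly upstream of the annotated gene, from the RefSeq promoter table (GRCm38.p6). Capitals mark the letters ACGTG and GCGTG on either strand (CACGT and CACGC when read on this strand), the core of the hypoxia response element.
Bnip3: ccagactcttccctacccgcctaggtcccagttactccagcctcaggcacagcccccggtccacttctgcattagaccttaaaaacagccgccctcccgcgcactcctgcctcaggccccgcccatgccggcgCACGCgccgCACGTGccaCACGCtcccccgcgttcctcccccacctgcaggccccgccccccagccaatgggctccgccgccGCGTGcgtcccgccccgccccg
The letters matched 5 times, between 104 and 18 bases upstream of the annotated gene, and the pair of matches that overlap form CACGTG, which is also the E-box read by other factors. G and C made up 72.6% of these bases. Of all 32851 RefSeq windows of 300 bases (250 before to 50 after a start), 43.8% held at least 1 match, 1.66% held 5 or more and 7.15% held CACGTG. RefSeq windows were found for 9 members, with no entry for Bnip3l. The windows of Mfn2 held 2 matches each, those of Pink1 and Dnm1l 1 each, and 1 of the windows of Fis1 held 1. The windows of Mfn1, Opa1, Mff and Fundc1 held 0. A match describes letters only and says nothing of binding.

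No fusion gene was called by edgeR between genotypes in any of the 4 treatments with all libraries. On the ethanol vehicle, Mfn2 (chr4:147873599-147904704, minus strand) had levels of 118, 118, 124, 119 and 121 CPM in WT mice. Akita mice had 133, 134, 123, 134 and 131 CPM, of which 1 mouse, with 123 CPM, lay within the WT range. For Mfn2 this gave a log2 fold change of 0.15 (SE 0.0484) with an adjusted p of 0.0564 in edgeR, and DESeq2 gave 0.0099. Without Akita ethanol mouse 3 the adjusted p of Mfn2 in edgeR was 0.0384 (log2 fold change 0.17). On MitoGamide the log2 fold change of Mfn2 was also 0.15 (SE 0.0756, adjusted p = 0.206), with 107 to 122 CPM in WT and 110 to 133 CPM in Akita mice. The genotypes therefore overlapped through 1 Akita mouse in each treatment of the ethanol arm. Over all 40 libraries it was 0.08 (SE 0.0645, adjusted p = 0.405). On ethanol, Mfn1 (chr3:32529465-32579239) averaged 77.6 ± 1.78 CPM in WT mice and 76.9 ± 2.96 CPM with the Akita mutation. Opa1 (chr16:29579334-29654884) averaged 122.5 ± 3.77 and 123 ± 4.74 CPM in these groups. For both genes the difference of the means was below either SD.

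The fission genes were not called between genotypes in any of the 4 treatments. Dnm1l (chr16:16312230-16358959, minus strand) averaged 53.5 ± 3.42 CPM in WT and 48.7 ± 2.69 CPM in Akita mice on ethanol. Fis1 (chr5:136953275-136966234) had 47.1 ± 2.11 and 48.1 ± 4.46 CPM. Mff (chr1:82724890-82752394) had 55.5 ± 2.06 and 52.1 ± 2.52 CPM. These 3 genes overlapped between the genotypes.

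Among the other mitophagy genes, Fundc1 (chrX:17556564-17572325, minus strand) had negative values in Akita mice in all 4 treatments. On ethanol, WT mice had 12.8, 16.3, 13.2, 13.4 and 13.9 CPM of Fundc1, and Akita mice had 12.5, 11.5, 11.2, 11.2 and 12.4 CPM. The groups did not overlap, by a small margin. The value was -0.23 on the log2 scale (SE 0.0823) with an adjusted p of 0.0747 in edgeR, so that it was not called. Its log2 fold change was -0.18 (SE 0.256, adjusted p = 0.951) on MitoQ, -0.14 (SE 0.369, adjusted p = 1.00) on water, -0.21 (SE 0.119, adjusted p = 0.240) on MitoGamide and -0.20 (SE 0.119, adjusted p = 0.242) over all 40 libraries. Without Akita MitoGamide mouse 5 the value on MitoGamide was -0.33 (adjusted p = 0.0256). Leaving out 1 library at a time moved the value of Fundc1 on water between -0.37 and 0.08, positive without WT water mouse 1 or 5, and on MitoQ between -0.33 and -0.02. With the covariate it was 0.22 on water. Fundc1 has the lowest counts of the members, with a median of 198.5 per library, and its SE on the ethanol vehicle was the largest of the 10. Pink1 (chr4:138313409-138326307, minus strand) averaged 181 ± 11.7 CPM in WT and 176 ± 12.9 CPM in Akita mice on ethanol, and on water its log2 fold change was -0.42 (SE 0.275, adjusted p = 0.917), or -0.55 to -0.24 with 1 library left out, the nearest to 0 without WT water mouse 1. Bnip3l (chr14:66985239-67008877, minus strand), the close relative of Bnip3, had 68.1 ± 3.09 and 64.0 ± 5.05 CPM in these groups, a log2 fold change of -0.07 (SE 0.0644, adjusted p = 0.491). Over all 40 libraries, 7 of the 10 members had a positive and 3 a negative log2 fold change, with a median of 0.01 beside a median of -0.02 over all genes tested.

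**Figure D2:**
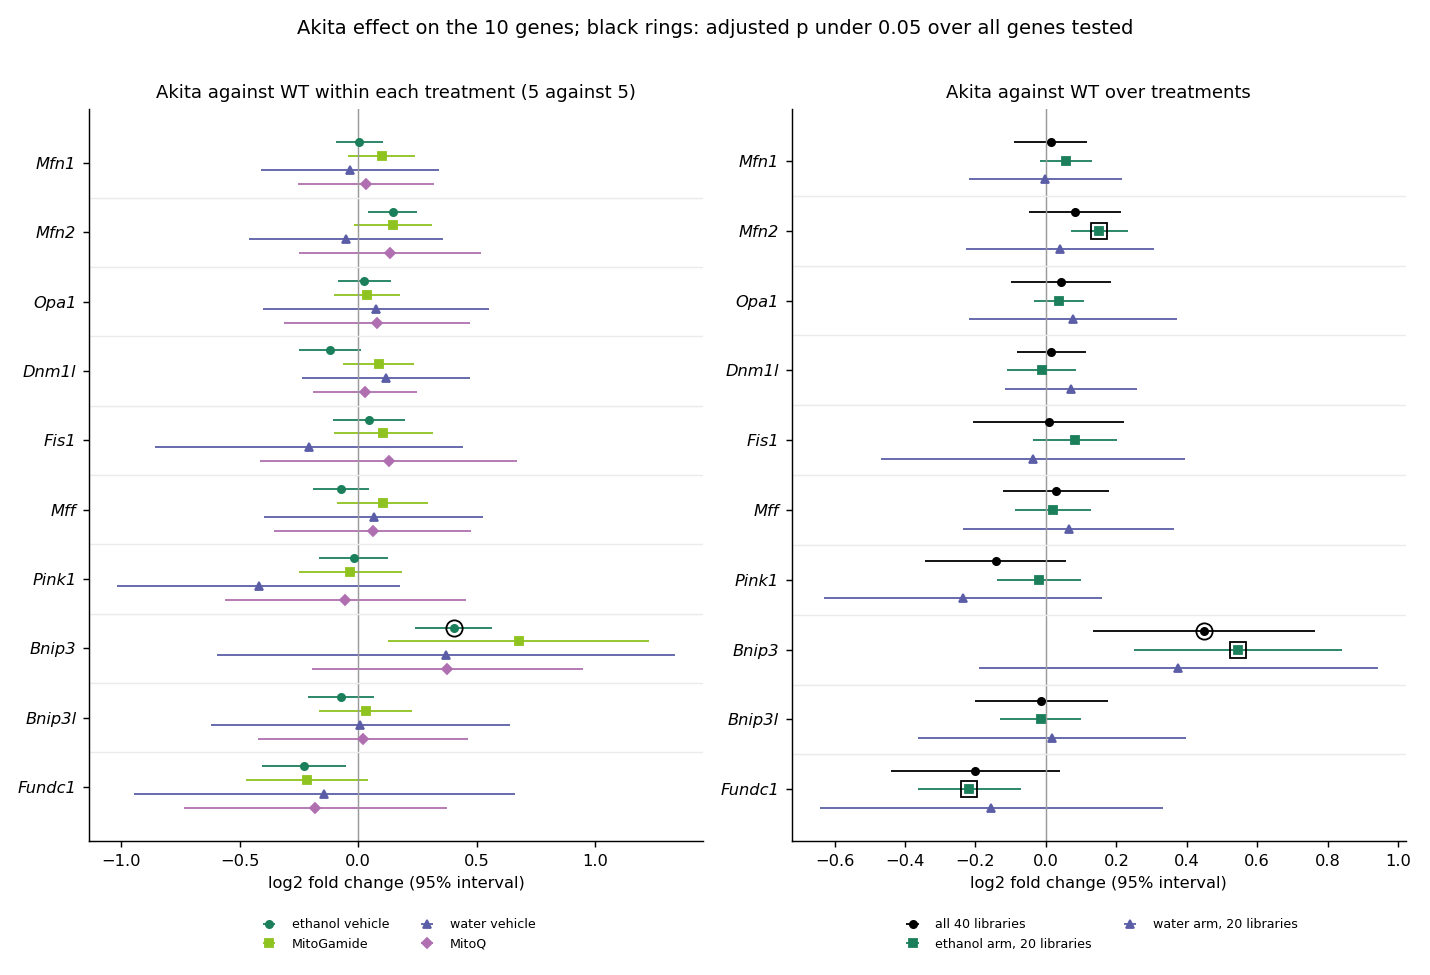
Points are log2 fold changes of Akita against WT for the 10 genes with 95% intervals, on the left within each treatment (5 against 5 mice) and on the right over all 40 libraries and in each arm, and black outlines mark an adjusted p under 0.05. Bnip3 is on the positive side in all rows, called on ethanol, over all libraries and in the ethanol arm, and the intervals of the water arm are the widest.

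Marker genes of cell types were compared between genotypes as well. On the ethanol vehicle 10 proximal tubule markers summed to 13468 ± 1383 CPM with the Akita mutation and 16619 ± 1133 CPM without it, and the ranges of 12070 to 15387 and 15567 to 17896 did not overlap (exact two-sided permutation test, p = 0.0079, adjusted p = 0.126 over 190 tests of library measures). For 4 principal cell markers the sums were 216 ± 40.1 and 151 ± 15.4 CPM (exact permutation p = 0.0238, adjusted p = 0.174). On MitoGamide the proximal tubule sums were 11045 ± 1331 and 15131 ± 473 CPM, and the principal cell sums 228 ± 39.3 and 121 ± 15.2 CPM (exact permutation p = 0.0079, adjusted p = 0.126 for each). Of the 10 proximal tubule markers, 2 fell and 4 had positive values on ethanol, and 3 fell and 3 had positive values on MitoGamide. On ethanol, where 16.4% of genes were called, 3 of 5 podocyte and 2 of 4 principal cell markers rose. In that treatment 2 of 4 tested leukocyte markers and 1 of 5 endothelial markers fell. On MitoGamide, where 14.3% of genes were called, 3 of 5 podocyte, 4 of 4 principal cell and 2 of 5 endothelial markers rose. There 1 of 4 tested leukocyte markers fell. On ethanol the thick ascending limb sums were 2390 ± 197 and 2784 ± 276 CPM and the adipocyte sums 19.3 ± 3.43 and 15.2 ± 1.09 CPM (exact permutation p = 0.0397, adjusted p = 0.215 for each). On MitoGamide the adipocyte sums were 27.6 ± 4.94 and 13.4 ± 3.83 CPM, with 1 of the 4 adipocyte markers tested, and olfactory receptor genes summed to 342 ± 71.7 and 555 ± 118 CPM (exact permutation p = 0.0079, adjusted p = 0.126 for each). Over all 40 libraries, where 22.8% of genes were called, 4 of 10 proximal tubule markers fell, 3 of the 10 had positive values, 2 of 4 thick ascending limb markers fell and 3 of 4 tested leukocyte markers fell. All 4 principal cell markers and 3 of 5 podocyte markers rose. Library measures were compared between the genotypes as well. On the ethanol vehicle the 10 most counted genes held 33.9% ± 2.76 of counts in Akita and 30.1% ± 1.04 in WT mice (exact permutation p = 0.0159, adjusted p = 0.159), the measure that served as the covariate above. On MitoGamide they held 36.8% ± 0.840 and 32.8% ± 2.52 (exact permutation p = 0.0159, adjusted p = 0.159), and mitochondrially encoded genes held 30.7% ± 2.79 and 26.3% ± 1.24 (exact permutation p = 0.0079, adjusted p = 0.126). With that covariate Bnip3 lost its call on ethanol, as given above. The part of the other measures in the values of Bnip3, Mfn2 and Fundc1 was not tested.

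The second comparison asked how MitoGamide changed the members. In Akita mice, Dnm1l rose with MitoGamide. Akita mice on ethanol had 47.2, 46.5, 50.6, 52.5 and 46.8 CPM of Dnm1l (ENSMUSG00000022789.15), and those on MitoGamide had 57.4, 60.6, 59.0, 62.5 and 62.6 CPM. All 5 treated mice lay above all 5 vehicle mice. Dnm1l had a log2 fold change of 0.32 (SE 0.0636, 95% interval 0.18 to 0.46), a 1.25-fold increase, with an adjusted p of 0.0415 in edgeR. It was the only member called, in a comparison that called 1.26% of 17051 genes. DESeq2 called 2 members, Dnm1l and Bnip3l, among 6.27% of these genes. When 1 library at a time was left out, Dnm1l kept its call in 2 of 10 cases, without MitoGamide mouse 1 or 5, with adjusted p-values between 0.0209 and 0.108 and log2 fold changes between 0.30 and 0.34. The number of genes called in these cases ran from 0 to 802, against 214 with all libraries, and was 802 without MitoGamide mouse 5. The adjusted p of Dnm1l was also over 0.05 with no filter (0.0981), with the replicate block (0.130), with all 40 libraries in 1 fit (0.161) and with the covariate (0.282).

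In WT mice Dnm1l was not called. WT mice on ethanol had 52.9, 58.1, 48.6, 53.3 and 54.7 CPM of Dnm1l, and those on MitoGamide had 58.0, 54.4, 58.6, 55.6 and 64.3 CPM. These groups overlapped, and the log2 fold change was 0.12 (SE 0.0662, adjusted p = 0.551 in edgeR). Between the genotypes the MitoGamide effect on Dnm1l differed by 0.20 (SE 0.0864, unadjusted p = 0.0335, adjusted p = 0.593), so that the effects were not shown to differ. That test called 0% of 17256 genes, with 0 members called by edgeR or DESeq2.

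The mitophagy receptors had positive values with MitoGamide in both genotypes. The log2 fold change of Fundc1 was 0.34 (SE 0.117, adjusted p = 0.139) in Akita and 0.33 (SE 0.0828, adjusted p = 0.307) in WT mice. In WT mice the Fundc1 groups did not overlap, with 16.7 to 19.0 CPM on MitoGamide against 12.8 to 16.3 CPM on ethanol. Bnip3l had log2 fold changes of 0.30 (SE 0.0915, adjusted p = 0.105) in Akita and 0.20 (SE 0.0617, adjusted p = 0.327) in WT mice. For Bnip3 the value in Akita mice was 0.41 (SE 0.257, adjusted p = 0.383) and rested on Akita mouse 5, without which it was 0.01 (SE 0.0852). Pink1 had negative values of -0.18 in Akita (SE 0.0891, adjusted p = 0.275) and -0.16 in WT mice (SE 0.078, adjusted p = 0.488). With 1 library left out, its value in Akita mice lay between -0.22 and -0.12. In WT mice, 0 of 10 members and 0% of 17395 genes were called by edgeR, with 3 members and 1841 genes at an unadjusted p under 0.05, and DESeq2 called 0 members and 74 genes.

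Among the fission and fusion genes, Mff had a log2 fold change of 0.24 (SE 0.0864, adjusted p = 0.144) with MitoGamide in Akita mice, whose groups did not overlap (55.6 to 77.2 CPM against 48.4 to 55.1 CPM). Mouse 5 had the highest level of Mff, 77.2 CPM against 55.6 to 60.0 CPM in the other 4. Opa1 had 0.13 (SE 0.0589, adjusted p = 0.238) in Akita and 0.12 (SE 0.0534, adjusted p = 0.459) in WT mice. Fis1 had -0.12 in Akita (SE 0.0759, adjusted p = 0.386) and -0.18 in WT mice (SE 0.0878, adjusted p = 0.494). With 1 library left out, its value in WT mice lay between -0.22 and -0.10. Mfn1 and Mfn2 differed by less than the larger SD of the groups in both genotypes.

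A fit of both genotypes together, added after the data were examined, had genotype as a factor and 20 libraries. It called 4 members among 5.82% of 17256 genes, and all 4 rose with MitoGamide. The log2 fold changes were 0.33 for Fundc1 (SE 0.0702, adjusted p = 0.0108), 0.25 for Bnip3l (SE 0.0551, adjusted p = 0.014), 0.22 for Dnm1l (SE 0.0473, adjusted p = 0.0125) and 0.12 for Opa1 (SE 0.0347, adjusted p = 0.0411). Without Akita mouse 5 the same 4 members were called, with values of 0.29, 0.22, 0.22 and 0.13, among 6.83% of 17321 genes. The MitoGamide and Akita comparisons share the Akita mice on ethanol, which had the lowest group means of Fundc1, Bnip3l, Mff and Dnm1l in the ethanol arm.

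Library measures were compared as well. For 5 against 5 mice the exact test cannot give a p below 0.0079, so that adjusted values over 190 tests could hardly pass 0.05 and say little. In Akita mice, mitochondrially encoded genes held 30.7% ± 2.79 of counts on MitoGamide and 25.01% ± 2.80 on ethanol (exact two-sided permutation p = 0.0159, adjusted p = 0.159). In WT mice the values were 26.3% ± 1.24 and 21.8% ± 1.03 (exact permutation p = 0.0079, adjusted p = 0.126). The sum of 10 proximal tubule markers was lower on MitoGamide in Akita mice, at 11045 ± 1331 against 13468 ± 1383 CPM (exact permutation p = 0.0317, adjusted p = 0.195), and that of 5 endothelial markers was higher, at 387 ± 67.8 against 296 ± 9.73 CPM (exact permutation p = 0.0079, adjusted p = 0.126). Also in Akita mice, 26417 ± 859 genes were detected on MitoGamide and 28087 ± 600.4 on ethanol (exact permutation p = 0.0159, adjusted p = 0.159). Their distal convoluted tubule sums were 744 ± 95.3 and 916 ± 101 CPM, and their adipocyte sums 27.6 ± 4.94 and 19.3 ± 3.43 CPM (exact permutation p = 0.0238, adjusted p = 0.174 for each). Olfactory receptor genes summed to 342 ± 71.7 and 469 ± 67.2 CPM (exact permutation p = 0.0317, adjusted p = 0.195). Of the 10 proximal tubule markers, 2 had positive values with MitoGamide in Akita and 4 in WT mice, with medians of -0.11 and -0.02, and 0 were called by edgeR in either. In WT mice the proximal tubule sum was 15131 ± 473 against 16619 ± 1133 CPM (exact permutation p = 0.0317, adjusted p = 0.195) and the principal cell sum 121 ± 15.2 against 151 ± 15.4 CPM (exact permutation p = 0.0238, adjusted p = 0.174). Their endothelial sum was 340 ± 82.4 against 327 ± 50.4 CPM (exact permutation p = 0.841). The part of these measures in the values of Dnm1l, Bnip3l, Fundc1 and Opa1 was not tested.

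**Figure D3:**
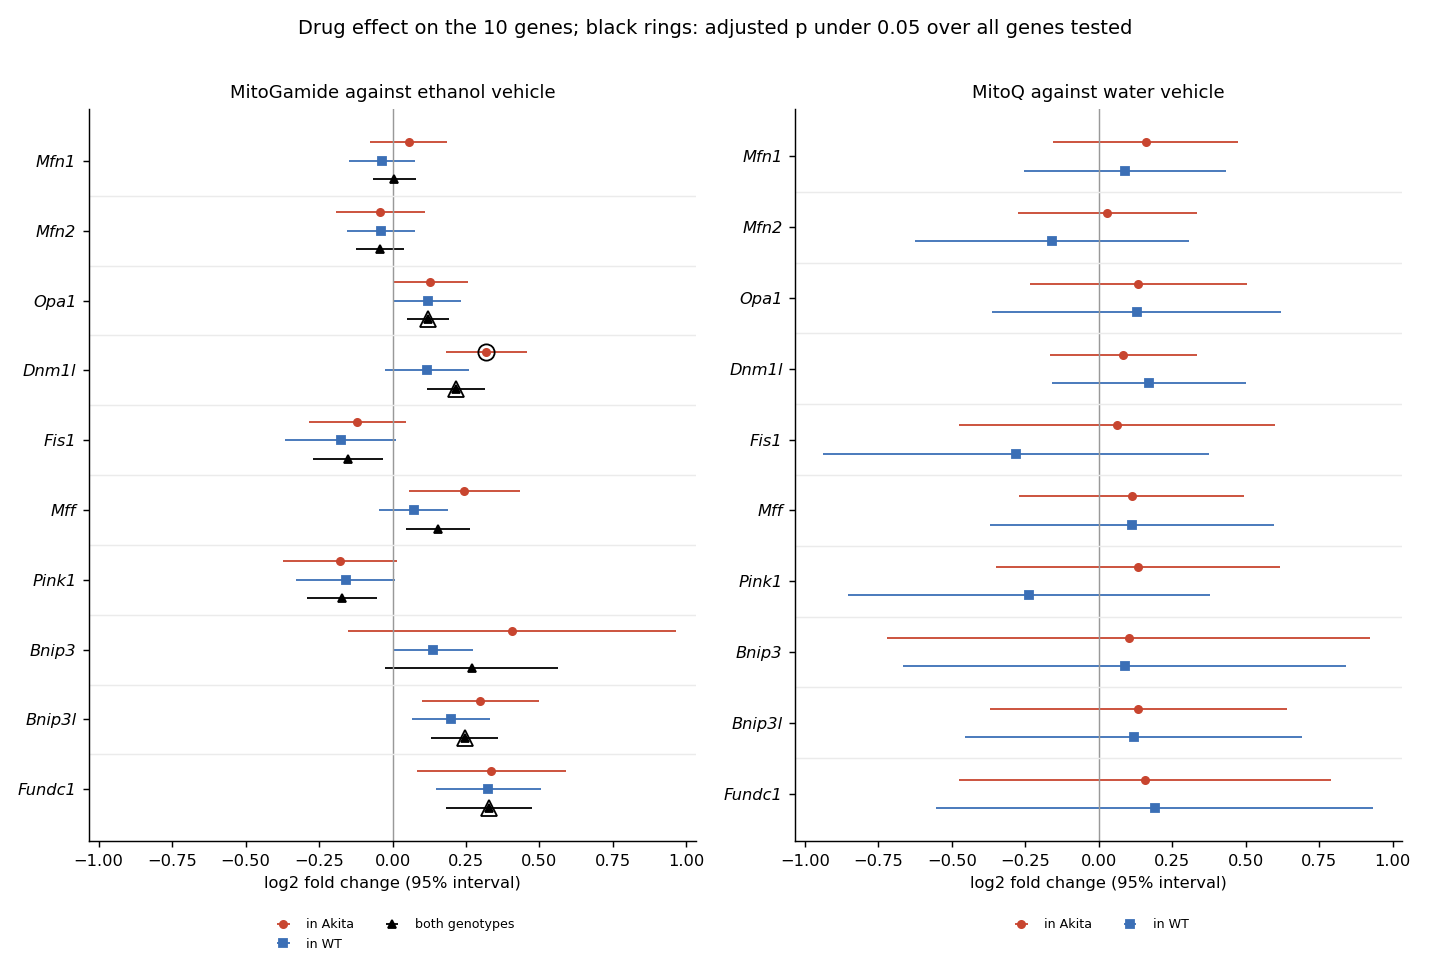
Points are log2 fold changes of the 10 genes with 95% intervals, on the left for MitoGamide against the ethanol vehicle and on the right for MitoQ against the water vehicle, and black outlines mark an adjusted p under 0.05. Dnm1l is called in Akita mice, Fundc1, Bnip3l, Dnm1l and Opa1 are called over both genotypes, and the intervals for MitoQ all include 0.

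The third comparison asked how MitoQ changed the members. No member was called against the water vehicle in either genotype. In Akita mice all 10 members had positive log2 fold changes between 0.03 (Mfn2) and 0.16 (Mfn1), with SEs between 0.115 and 0.378. The values of Fis1, Fundc1, Mff, Pink1, Mfn2 and Bnip3 turned negative when some single library was left out, the lowest being -0.13 for Fis1 without Akita MitoQ mouse 1. In WT mice they lay between -0.28 (Fis1) and 0.19 (Fundc1), with SEs between 0.151 and 0.346. With 1 library left out, the WT value of Fis1 ran from -0.43 to -0.11, that of Fundc1 from 0.03 to 0.40 and that of Bnip3 from -0.10 to 0.38. Of the 10 members, 0 had an unadjusted p under 0.05 in either genotype. In Akita mice edgeR called 0% of 18496 genes, with 363 at an unadjusted p under 0.05, and DESeq2 called 0. In WT mice edgeR called 0% of 17881 genes, with 575 at an unadjusted p under 0.05, and DESeq2 called 2, neither of them a member. A test of whether the MitoQ effect differed by genotype likewise called 0% of 18225 genes and 0 members in edgeR and in DESeq2, with 207 genes and 0 members at an unadjusted p under 0.05. These values rest on groups of which 2 or 3 of 5 libraries are among the 10 over 40%. Without them, 0 members were called by edgeR in either genotype, among 0.0644% of 18636 genes in Akita and 0.0285% of 17524 in WT mice. At an unadjusted p under 0.05 were 0 members and 929 genes in Akita mice, and 3 members and 2966 genes in WT mice. The test of the difference then called 0.00552% of 18132 genes and 0 members, with 938 genes and 0 members at an unadjusted p under 0.05. Bnip3 then had log2 fold changes of -0.57 (SE 0.296) in Akita and -0.29 (SE 0.117) in WT mice, and Pink1 had -0.46 (SE 0.117, adjusted p = 0.173) in WT mice.

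The vehicles were also compared, as arms. In Akita mice, Pink1 had 189, 176, 190, 162 and 166 CPM on ethanol and 151, 75.6, 105, 151 and 103 CPM on water. The groups did not overlap, and the lowest 3 values were those of the libraries over 40%. This was a log2 fold change of 0.60 (SE 0.179, adjusted p = 0.0467 in edgeR), and Pink1 was the only member called among 12.7% of 17928 genes. DESeq2 called 4 members among 23.8% of genes. The edgeR call of Pink1 was lost with no filter (adjusted p = 0.0589) and with the replicate block (adjusted p = 0.072). Without the libraries over 40%, which left 2 Akita water mice, it was 0.24 (SE 0.0884, adjusted p = 0.248), with 0 members and 0.0335% of 17914 genes called by edgeR, and 2 members and 2819 genes at an unadjusted p under 0.05. Leaving out 1 library at a time moved the genes called between 1 and 6496, the most without Akita water mouse 1 or 4 (6496 and 6120), and Pink1 kept its call in these 2 cases of 10. All 10 members had positive values in this comparison, from 0.06 for Dnm1l to 0.65 for Bnip3 (SE 0.322, adjusted p = 0.150). Without the libraries over 40% the values ran from -0.14 for Bnip3l to 0.24 for Pink1, and that of Bnip3 was -0.06 (SE 0.108, adjusted p = 0.807). In WT mice all 10 were positive too, from 0.16 for Mfn2 to 0.66 for Fundc1, with 0 members and 0% of 18092 genes called by edgeR, 4 members and 4959 genes at an unadjusted p under 0.05, and 0 members and 725 genes called by DESeq2. With 1 library left out, Mfn2 ran from 0.04 to 0.25, Pink1 from 0.08 to 0.38 and Fundc1 from 0.50 to 0.86. Leaving out 1 library at a time moved the genes called in WT mice between 0 and 5216 and the members called between 0 and 7. The highest numbers arose without WT water mouse 5, where Bnip3l, Dnm1l, Fundc1, Mff, Mfn1, Opa1 and Bnip3 were called among 28.6% of 18225 genes. Without the libraries over 40% the values in WT mice ran from -0.24 for Pink1 to 0.14 for Opa1, with 0 members and 0% of 17626 genes called by edgeR, and 1 member and 1566 genes at an unadjusted p under 0.05. The members' median was 0.38 in each genotype, beside -0.02 in Akita and -0.04 in WT mice over all genes tested. Marker genes were compared between the vehicles too. All 10 proximal tubule markers had positive values in both genotypes, with medians of 0.37 in Akita and 0.32 in WT mice, and 0 of the 10 were called by edgeR in either. All 5 podocyte markers had negative values, with medians of -0.39 and -0.64, as had 4 of 5 fibroblast and smooth muscle markers, with medians of -0.44 and -0.58, and 2 of each list were called lower in Akita mice. The proximal tubule sum was 13468 ± 1383 CPM on ethanol and 10282 ± 2917 CPM on water in Akita mice (exact permutation p = 0.0952), and 16619 ± 1133 and 12755 ± 2850 CPM in WT mice (exact permutation p = 0.0238, adjusted p = 0.174). In Akita mice the endothelial sum was 296 ± 9.73 CPM on ethanol and 225 ± 56.9 CPM on water, and olfactory receptor genes summed to 469 ± 67.2 and 800.0 ± 191 CPM (exact permutation p = 0.0079, adjusted p = 0.126 for each). Their distal convoluted tubule sums were 916 ± 101 and 1315 ± 255 CPM (exact permutation p = 0.0159, adjusted p = 0.159), and their leukocyte sums 136 ± 25.6 and 95.7 ± 18.8 CPM (exact permutation p = 0.0238, adjusted p = 0.174). Of the 3 distal convoluted tubule markers, 1 was called lower on ethanol and 1 was called higher. Adrenal cortex markers summed to 4.005 ± 0.601 and 5.58 ± 1.42 CPM (exact permutation p = 0.0397, adjusted p = 0.215). Mitochondrially encoded genes held 25.01% ± 2.80 and 33.9% ± 7.81 of their counts (exact permutation p = 0.0397, adjusted p = 0.215). Lars2 had 779 ± 979 and 6738 ± 7748 CPM in Akita mice (exact permutation p = 0.0476, adjusted p = 0.245), and 154 ± 67.0 and 4435 ± 7631 CPM in WT mice (exact permutation p = 0.0238, adjusted p = 0.174). The part of these measures in the members' values was not tested. A test of whether the Akita effect differed by vehicle called 0% of 18050 genes and 0 members in edgeR, with 767 genes and 0 members at an unadjusted p under 0.05, and DESeq2 called 2 genes and 0 members. Without the libraries over 40% that test called 0% of 17826 genes and 0 members, with 2760 genes and 3 members at an unadjusted p under 0.05.

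**Figure D4:**
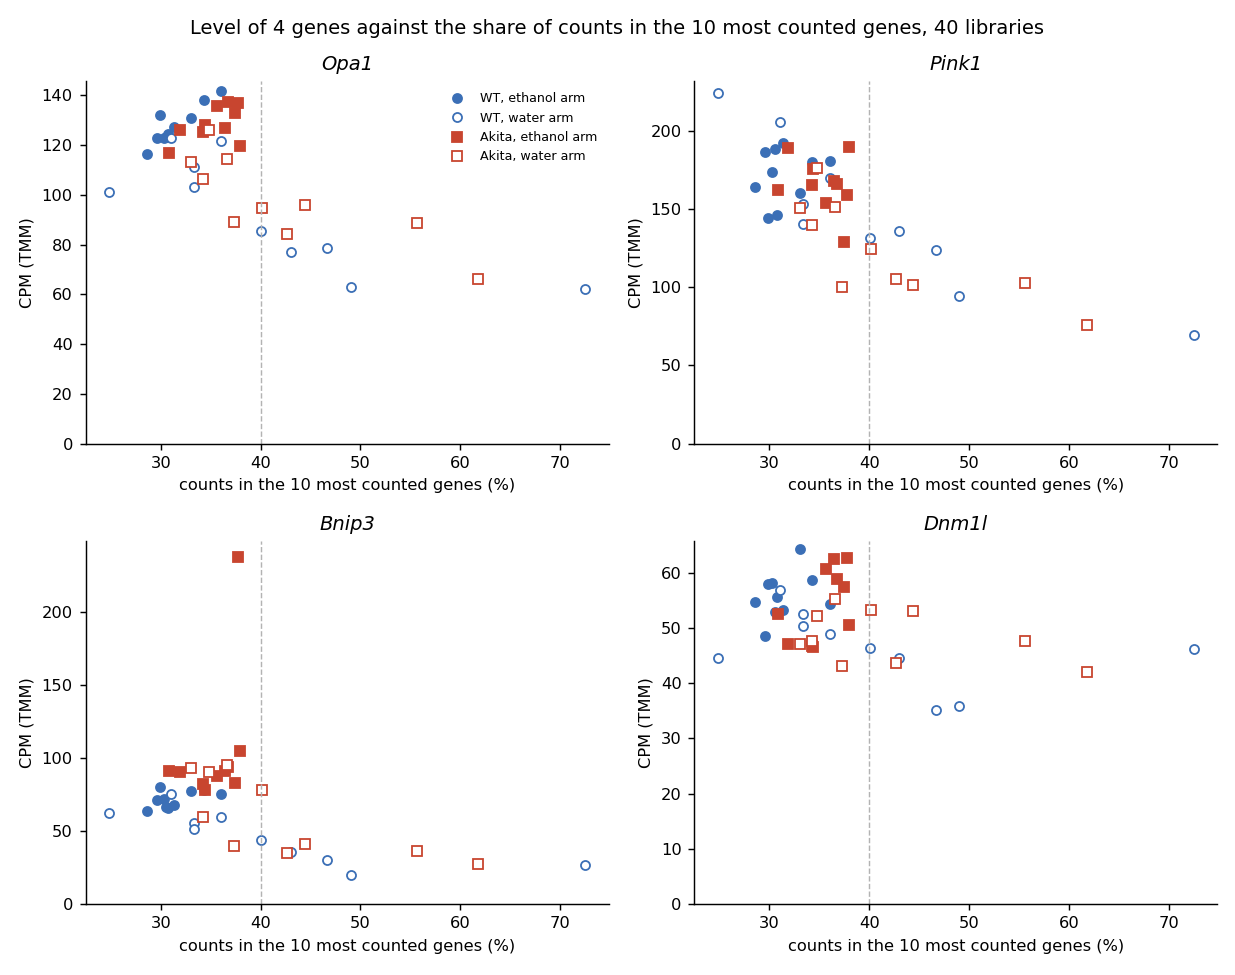
Each panel plots the level of 1 gene (CPM after TMM scaling) against the percent of a library's counts in its 10 most counted genes, for 40 libraries, with WT as circles, Akita as squares, the ethanol arm filled and the water arm open. Right of the dashed line at 40% lie 10 libraries of the water arm, with Opa1 at 62.1 to 95.8 CPM against 116.6 to 142 CPM in the ethanol arm, while Dnm1l overlaps more between these sets.

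Genes that work with the members were followed as 5 lists. Of their 75 tested genes, 10 (13.3%) were called between Akita and WT over all 40 libraries, against 22.8% of all genes. On the ethanol vehicle 13 of 75 (17.3%) were called, against 16.4% of all genes. The differences between these shares were not tested. In the fission list (DRP1 adaptors and actin regulators), 1 of 9 tested genes was called between Akita and WT over all 40 libraries, against 22.8% of all genes. It was Inf2, a formin that builds actin at the sites of division, which rose by 0.33 (SE 0.117, adjusted p = 0.0368). Within treatments Inf2 had log2 fold changes of 0.35 (adjusted p = 0.105) on ethanol, 0.48 (adjusted p = 0.0472) on MitoGamide, 0.48 (adjusted p = 0.802) on water and 0.04 (adjusted p = 0.997) on MitoQ, where its mean CPM was lower in Akita mice (6.23 ± 1.46 against 6.46 ± 3.52). Spire1, its actin-nucleating partner, had 0.12 (adjusted p = 0.130) and Mief2, an adaptor of DRP1, had 0.10 (adjusted p = 0.374). In the list of fusion, inner membrane proteases and cristae, 1 of 18 was called. Afg3l2, a subunit of the inner membrane protease m-AAA, rose by 0.10 (SE 0.0337, adjusted p = 0.0296). Oma1, which cleaves OPA1, had -0.14 (adjusted p = 0.0794), and Chchd6, of the cristae complex MICOS, had 0.21 (adjusted p = 0.0804).

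In the list of mitochondrial ubiquitin ligases, deubiquitinases and PINK1 import, 15 genes were tested. On the ethanol vehicle 3 of these were called higher and 1 lower (26.7%), against 16.4% of all genes. Over all 40 libraries 1 of 15 (6.67%) was called, against 22.8% of all genes. Usp8, a deubiquitinase that acts on Parkin, fell by 0.23 on the log2 scale (SE 0.0558, adjusted p = 0.0016). Parl, the protease that cleaves PINK1, had 0.17 (adjusted p = 0.0532), and Tomm40, the pore of the outer membrane, had 0.16 (adjusted p = 0.0566). Of the other mitophagy receptors and adaptors, 3 of 12 (25%) were called, a share near that of all genes. Optn, an adaptor that links ubiquitin to the autophagosome, rose by 0.51 (SE 0.0923, adjusted p = 4.31e-05), and on ethanol it had 10.7 to 12.2 CPM in Akita and 6.64 to 8.72 CPM in WT mice, with no overlap. Calcoco1, an autophagy adaptor, rose by 0.22 (adjusted p = 0.0182) and Tbk1, the kinase of these adaptors, fell by 0.14 on the log2 scale (adjusted p = 0.0176).

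In the list of autophagosome machinery, 1 of 21 genes was called higher and 3 lower on the ethanol vehicle (19.0%), against 16.4% of all genes. Over all 40 libraries 4 of 21 (19.0%) were called, 2 higher and 2 lower, against 22.8% of all genes. Atg3, which passes LC3 to its lipid, fell by 0.27 on the log2 scale (SE 0.0462, adjusted p = 2.04e-05), and Ulk2, an initiating kinase, fell by 0.29 (SE 0.0544, adjusted p = 6.75e-05). Atg7, which activates LC3, rose by 0.23 (SE 0.046, adjusted p = 0.000198). The other called gene was Ulk1, the relative of Ulk2, named after its value was seen, which rose by 0.24 (SE 0.0735, adjusted p = 0.0151). The 5 lists had median log2 fold changes from -0.04 (autophagosome machinery) to 0.03 (fusion, proteases and cristae). With MitoGamide in Akita mice, 1 of 75 tested genes of these lists was called (1.33%), against 1.26% of all genes. Apoo, a MICOS subunit, rose by 0.46 (SE 0.0761, adjusted p = 0.0277), from 37.2 to 45.8 CPM on ethanol to 51.6 to 63.5 CPM on MitoGamide, without overlap. Its call was lost with the replicate block and without Akita ethanol mouse 1 or 2, where 0 genes were called by edgeR. The genes with the smallest p of the other lists were Atg5 at 0.36 (adjusted p = 0.0566), Rhot1 at 0.29 (adjusted p = 0.0628), Slc25a46 at 0.28 (adjusted p = 0.143) and Tax1bp1 at 0.29 (adjusted p = 0.145).

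Across the 40 libraries the members' log2 levels moved together, with Pearson's r between 0.45 and 0.96 and a median of 0.83 over 45 pairs. In the 20 libraries of the ethanol arm alone the median was 0.21, and r ranged from -0.47 (Dnm1l and Fis1) to 0.85 (Mff and Bnip3l). These points share library, depth and the arm's low libraries, and r is given as a description. The genes with the highest r over the 40 libraries are given for each member, 2 for each but Mfn2. Opa1 was closest to Atp5c1 (r = 0.976) and to Immt (0.9754), which encode a subunit of ATP synthase and the core of MICOS. Fis1 was closest to Slc25a3 (0.979), the mitochondrial phosphate carrier, and Uqcrfs1 (0.979), a subunit of complex III. Mfn2 was closest to Uqcrc1 (0.962), also of complex III. Bnip3 was closest to Enpp5 (0.973) and Acad11 (0.968). Bnip3l and Mff shared Pafah1b1 (0.979 and 0.969), followed by Ppp1cb (0.974) and Zyg11b (0.962). Fundc1 was closest to Arl5a (0.966) and Cct6a (0.963), Pink1 to Tmbim6 (0.958) and Saraf (0.952), and Mfn1 to Stx7 (0.949) and Tmed2 (0.941). Dnm1l had the lowest values, with Wapl (0.890) and Septin7 (0.884). In the ethanol arm alone, r with these genes was highest for Bnip3 and Enpp5 (0.943) and lowest for Mfn1, with Stx7 (0.376) and Tmed2 (0.315), and for Pink1 with Saraf (0.490).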

How the data were processed

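Total RNA of the renal cortex of individual mice was depleted of ribosomal RNA and sequenced from directional libraries. After trimming with Skewer, the authors assigned reads with kallisto 0.46.1 to the transcripts of GENCODE mouse release 25, and summed these by gene in R 4.0.2. The deposited values are estimated counts in whole numbers, neither scaled nor filtered, and were used as deposited. Kallisto divides reads among similar transcripts, and its strand setting is not given in the sources used here. Antisense genes share exon bases with Dnm1l, Mff and Bnip3, with median counts of 7, 46.5 and 0, and the row Bnip3l-ps had a median of 0.

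The members and lists were chosen with earlier results of these data known. All 10 members and the fixed lists were followed. By rule, the 3 list genes with the smallest p for genotype, the gene with the smallest p for MitoGamide in Akita mice and the 2 genes most correlated with each member were named, except 1 that is not reported here. Ulk1 was named outside this rule. Positions are those of GENCODE release 21 (GRCm38).

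Each comparison was fitted on its own libraries in R 4.3.3 with edgeR 4.0.16 (TMM, quasi-likelihood test), keeping genes that averaged 10 counts or more. P-values were adjusted by Benjamini-Hochberg over all genes tested, and under 0.05 was a call. The study used DESeq2, which was run as an alternative (1.42.0). Others were RLE scaling, dropping the filter or asking for 10 counts in each library, 1 fit of all 40 libraries, the replicate number as a block and each library left out. CPM came from TMM over the 40 libraries, with a prior count of 2 for correlations. Intervals are at 95%. Library measures were compared by exact permutation over 252 assignments. On simulated counts for the ethanol comparison (17747 genes), 97% of 2-fold and 88% of 1.5-fold changes were recovered. These changes were placed only in genes with higher counts. Smaller changes, such as those of all members in that comparison, and the water arm were not simulated, so that recovery there is not known. Each library came from 1 mouse.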

Additional observations from a re-analysis of the deposited data

Results flagged for a closer look

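In 6 of 80 groups of 5 values (10 members in 8 groups), 1 mouse stood apart, meaning that the distance from it to the next mouse took up more than 0.71 of the group's range. Chance flags about 1 in 20 groups, which is 4 of 80. The largest gap was that of Bnip3 in Akita mice on MitoGamide, where mouse 5 had 238 CPM and the other 4 had 82.6 to 93.7 CPM (gap 0.929 of the range). In this mouse mitochondrially encoded genes held 35.4% of counts, against 28.0% to 30.5% in the other 4, the proximal tubule markers summed to 8994 CPM, against 10604 to 12337 CPM, and the podocyte markers to 403 CPM, against 233 to 305 CPM. Their part in the value of Bnip3 was not tested. The same mouse had 77.2 CPM of Mff, against 55.6 to 60.0 CPM in the other 4 (0.796). Mouse 1 of this group had 110 CPM of Mfn2, against 129 to 133 CPM (0.821). Among Akita mice on ethanol, mouse 3 had 123 CPM of Mfn2, against 131 to 134 CPM (0.727). Among WT mice on MitoQ, mouse 3, the library with 72.5% of counts in 10 genes, had 25.7 CPM of Mff, against 47.0 to 54.4 CPM (0.743), and 30.1 CPM of Bnip3l, against 55.7 to 65.8 CPM (0.717).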

How the results depend on the processing

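Of 140 values (10 members in 14 comparisons), 4 were called and kept their direction under all alternatives, but each of the 4 calls was lost under at least 1. Another 25 values were called under at least 1, where the fit of both genotypes counts in both MitoGamide comparisons. These 25 also include calls between vehicles that arose on leaving out single libraries. Of all 140 values, 72 changed sign under at least 1 alternative, the largest being Bnip3 between vehicles in Akita mice (0.65, and -0.06 without the libraries over 40%). Alternatives other than the planned ones were chosen after seeing the data.

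For Akita against WT over all treatments, 1 member was called in the main comparison, 0 with no filter (9.18% of all genes called), 0 in the water arm, 2 without the libraries over 40% (30.3%), 2 with the share of the 10 most counted genes as a covariate (33.2%), and 3 in the ethanol arm with and without Akita MitoGamide mouse 5. Leaving out single libraries gave 0 to 1. On the ethanol vehicle, DESeq2 (17.6% of all genes) and a minimum of 10 counts in every library (19.0%) called 2, all 40 libraries in 1 fit and the covariate called 0, and leaving out single libraries gave 1 to 2. On MitoGamide, DESeq2 called 1 and leaving out single libraries gave 0 to 2. For MitoGamide in Akita mice, the main comparison called 1 among 1.26% of all genes. DESeq2 called 2 (6.27% of all genes), and the fit of both genotypes 4 (5.82%), also without mouse 5 (6.83%). No filter, all 40 libraries, the replicate block and the covariate called 0 members. The replicate block called 0 genes in all, and the all-gene shares of the other fits are not given here. These counts therefore say nothing of the members in particular. Leaving out single libraries gave 0 to 1, among 0 to 802 genes called. For WT mice, which on their own called 0 with any library left out, the alternative was again the fit of both genotypes, with 4 calls, also without mouse 5, that are not of WT mice alone. Between vehicles in Akita mice, DESeq2 called 4 (23.8% of all genes), and the fit without the libraries over 40% called 0 (0.0335%). No filter, the replicate block and the covariate called 0 members, with all-gene shares not given here. Leaving out single libraries gave 0 to 7, the calls above 1 arising without Akita water mouse 1 or 4 (36.2% and 34.5% of all genes called). In WT mice all 40 libraries in 1 fit called 2 (8.82% of all genes called), and leaving out single libraries 0 to 7, with 7 without WT water mouse 5 (28.6% of all genes called). The other comparisons called 0 members under all alternatives. Without Akita MitoGamide mouse 5, the MitoGamide effect on Bnip3 differed between Akita and WT mice by -0.11, against 0.26 with all mice and up to 0.38 without other single libraries. The cause of these shifts was not tested.

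The replicate numbers did not pair the mice: residuals of 140 pairs with the same number had a median correlation of -0.0052, 34 of 140 were over 0.1, and 6 of 40 libraries correlated best with their own number. With the replicate block, MitoGamide in Akita mice called 0 genes and Bnip3 on ethanol kept its call (0.40, adjusted p = 0.0055, edgeR). The all-gene share called on ethanol was 4.75% with all 40 libraries in 1 fit and 5.8% with the covariate. Groups of 5 limit the precision, and the members' SEs ran from 0.163 to 0.444 on water against 0.0467 to 0.0823 on ethanol.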
